A study of Mus musculus with 19 samples.

Results

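A set of 9 genes of cytotoxic and T lymphocytes was followed in the CD11b+ cells of mouse brain: Ifng, Prf1, Gzma, Gzmb, Nkg7, Ncr1, Klrd1, Cd3e and Cd3g. They are 9 of the 56980 genes in the count table. They were selected on measured values, since several of them had been seen to differ between the genotypes in these same libraries, so that their own differences between genotypes or treatments are given as a description, without a test. The libraries came from 19 male mice aged 3 to 4 months, either wildtype (WT) or carrying a gene trap in Park7, the gene of DJ-1 (KO, allele Gt(XE726)Byg on a background backcrossed to C57BL/6NCrl, with WT littermates). The gene trap is not restricted to a cell type. The mice had received lipopolysaccharide (LPS, from Escherichia coli O55:B5) intraperitoneally at 4 μg per g body weight, or PBS, 6 h before sampling. There were 4 WT PBS, 5 WT LPS, 5 KO PBS and 5 KO LPS mice. Cells were taken from the whole brain without olfactory bulb and cerebellum by magnetic sorting for CD11b, an integrin of microglia and of other myeloid cells.

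Cytotoxic lymphocytes, which are natural killer (NK) cells and cytotoxic T cells, kill target cells by releasing granules. Perforin opens pores in the target membrane and granzymes enter through them, while interferon-gamma, which the same cells secrete, activates macrophages and microglia. Mature mouse NK cells carry CD11b on their surface and most T cells do not, so that a CD11b sort can hold NK cells beside microglia, monocytes and neutrophils. In RNA from a mixture of cells, a change in the number of cells of one type and a change in the RNA per cell cannot be told apart.

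Total counts per library ranged from 11936364 to 22788884 (median 17211939). At these depths 3 counts, taken as the smallest signal, corresponded to 0.139 to 0.256 CPM (counts scaled to the library size after TMM normalization). The limit takes in counting error alone, because reads of 1 library can stem from the same molecule. Park7 was at 20.6 to 32.1 CPM in the WT libraries and at 0.457 to 5.38 CPM in the KO libraries, with no overlap. The 7 microglia markers summed to between 3180 and 17810 CPM in every library, against 2.08 to 21.8 CPM for all 9 lymphocyte genes together. The lymphocyte genes were a minor signal beside them.

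All members are protein-coding genes on GRCm39. Ifng (interferon-gamma, ENSMUSG00000055170) lies at chr10:118276951-118281797 on the plus strand and overlaps Gm49751, an unclassified annotated gene on the same strand. Prf1 (perforin, ENSMUSG00000037202) lies at chr10:61133546-61140461 on the plus strand. Gzma (granzyme A, ENSMUSG00000023132) lies at chr13:113230355-113237524 and Gzmb (granzyme B, ENSMUSG00000015437) at chr14:56496295-56499717, both on the minus strand. Nkg7 (a protein of the granule membrane, ENSMUSG00000004612) lies at chr7:43086497-43087678 and Ncr1 (the activating NK receptor NKp46, ENSMUSG00000062524) at chr7:4340710-4348171, both on the plus strand. Klrd1 (CD94, the partner chain of NKG2 receptors, ENSMUSG00000030165) lies at chr6:129568677-129575738 on the plus strand. Cd3e and Cd3g encode the epsilon and gamma chains of the CD3 complex, which carries the signal of the T cell receptor. Cd3e (ENSMUSG00000032093) lies at chr9:44910037-44920925 on the minus strand and overlaps Gm48719 on the other strand and Gm48720 on its own, and Cd3g (ENSMUSG00000002033) lies at chr9:44880870-44891735 on the minus strand. Gzma and Gzmb belong to a multigene family, so that reads shared with near-identical stretches of related genes are a source of uncertainty.

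The promoters of 3 members are shown because, among the members with higher levels after LPS, Gzmb had the largest fitted difference between LPS and PBS mice, Ifng had the largest difference between genotypes after LPS, and Prf1 came next in both. The sequences are those of RefSeq on GRCm38.p6, an older build than that of the counts, and run 5′ to 3′ on the gene's strand from 250 bases before to 50 bases after the transcription start. Capitals mark matches to any of the letters searched, which among these 3 windows are those of the AP-1 site TGANTCA.
Ifng, chr10:118440796-118441095, plus strand: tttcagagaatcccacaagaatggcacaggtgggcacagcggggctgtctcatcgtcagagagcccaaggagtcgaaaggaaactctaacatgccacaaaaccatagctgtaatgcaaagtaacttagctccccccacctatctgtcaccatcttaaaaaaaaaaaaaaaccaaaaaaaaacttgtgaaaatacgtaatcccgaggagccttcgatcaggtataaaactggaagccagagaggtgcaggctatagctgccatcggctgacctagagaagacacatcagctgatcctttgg
Prf1, chr10:61297586-61297885, plus strand: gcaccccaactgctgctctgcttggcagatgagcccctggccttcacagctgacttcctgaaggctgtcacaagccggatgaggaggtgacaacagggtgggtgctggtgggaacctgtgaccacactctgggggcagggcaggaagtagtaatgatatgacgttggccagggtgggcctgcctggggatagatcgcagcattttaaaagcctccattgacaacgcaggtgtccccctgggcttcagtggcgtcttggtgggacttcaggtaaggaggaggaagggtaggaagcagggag
Gzmb, chr14:56262285-56262584, minus strand: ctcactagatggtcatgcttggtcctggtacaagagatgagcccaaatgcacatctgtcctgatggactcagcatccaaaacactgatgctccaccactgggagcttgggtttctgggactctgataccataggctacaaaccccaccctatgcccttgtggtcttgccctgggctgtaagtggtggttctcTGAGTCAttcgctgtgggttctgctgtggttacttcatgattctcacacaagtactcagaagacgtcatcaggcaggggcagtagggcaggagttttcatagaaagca
A promoter was found in the table for 8 of the 9 members, and not for Klrd1. Both strands were searched for the AP-1 letters and for the T-box (GGTGTGA), ISRE (GAAANNGAA), NF-kappaB (GGGANTTTC) and CRE (TGACGTCA) letters, and a base could count for more than 1 motif. With the first transcribed base as 0, the Gzmb window held AP-1 letters at -58. The Ifng, Prf1, Cd3e and Cd3g windows held none of the letters searched. Gzma held ISRE letters at -96 and -66, Nkg7 held T-box letters at -13, and both Ncr1 windows held NF-kappaB letters. Of 32851 mouse promoters of the same length, 7.81% held the AP-1, 3.98% the T-box, 8.56% the ISRE, 1.11% the NF-kappaB and 1.79% the CRE letters. These matches are descriptions of the letters and not of binding.

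Ifng was nearly absent in PBS mice and was counted mainly in WT mice after LPS. The raw Ifng counts were 0, 0, 2 and 1 in the WT PBS libraries and 10, 1, 19, 25 and 8 in the WT LPS libraries. They were 0, 0, 2, 0 and 0 in the KO PBS libraries and 0, 1, 1, 5 and 0 in the KO LPS libraries. Of the WT LPS libraries, 4 held more Ifng than any KO LPS library, and 1 lay within the KO range. The mean Ifng level after LPS was 0.823 ± 0.590 CPM in WT (SD, n = 5) and 0.0793 ± 0.116 CPM in KO (SD, n = 5), the latter under the level of 3 counts. The 63 Ifng counts of the WT LPS libraries against 3 of the WT PBS libraries gave a ratio of 18.6 per effective library size, with an exact 95% counting interval of 6.08 to 92.6. The corresponding ratio in KO, 7 against 2 counts, was 3.98 with an interval of 0.758 to 39.3. These intervals cover counting error over the pooled libraries, not the spread between mice, and are no test. The fit without a low-count filter gave a log2 fold change (log2FC) of -3.22 for KO against WT after LPS, with a standard error (SE) of 0.88. Without KO LPS replicate 4, which held 5 of the 7 KO counts, the log2FC was -4.48.

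The granule genes had higher mean levels after LPS in both genotypes. Most monocyte markers and some neutrophil markers rose as well, with 5 of 6 monocyte markers in each genotype (median log2FC of 2.73 in WT and 2.43 in KO) and 3 of 8 neutrophil markers in WT and 4 of 8 in KO (medians of 1.15 and 0.97). Another neutrophil marker, Csf3r, fell by 0.64 in WT and by 0.55 in KO on the log2 scale. At the same thresholds, 18.4% of all genes tested rose and 17.4% fell in WT, and 20.1% rose and 19% fell in KO. The part of the myeloid markers in the levels of the granule genes was not tested. Raw Prf1 counts were 15, 4, 1 and 10 in WT PBS, 47, 31, 82, 56 and 11 in WT LPS, 5, 4, 2, 3 and 2 in KO PBS, and 8, 9, 18, 28 and 3 in KO LPS. Every WT LPS library had more Prf1 CPM than every WT PBS library, whereas the KO LPS and KO PBS ranges overlapped. Mean Prf1 levels were 0.428 ± 0.331 CPM in WT PBS (SD, n = 4), 2.87 ± 1.53 CPM in WT LPS (SD, n = 5), 0.172 ± 0.0831 CPM in KO PBS (SD, n = 5) and 0.765 ± 0.548 CPM in KO LPS (SD, n = 5). The log2FC of Prf1 for LPS against PBS was 2.71 (SE 0.61) in WT and 2.14 (SE 0.63) in KO. For KO against WT it was -1.89 (SE 0.53) after LPS, a 3.71-fold lower level, and -1.32 (SE 0.69) at PBS.

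Raw Gzmb counts were 3, 1, 7 and 3 in WT PBS, 51, 23, 104, 120 and 24 in WT LPS, 3, 2, 2, 6 and 0 in KO PBS, and 13, 47, 63, 61 and 24 in KO LPS. The LPS libraries lay above the PBS libraries in both genotypes, without overlap, while the KO LPS counts lay within or below the WT LPS range. Gzmb had the largest LPS-associated increase of the members that could be fitted, with a log2FC of 4.24 (SE 0.71) in WT and 4.10 (SE 0.67) in KO. Its log2FC for KO against WT was -0.75 (SE 0.52) after LPS and -0.60 (SE 0.83) at PBS. The latter was 0.02 without WT PBS replicate 3.

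Raw Gzma counts were 11, 8, 16 and 9 in WT PBS, 27, 11, 80, 98 and 20 in WT LPS, 3, 19, 3, 4 and 13 in KO PBS, and 9, 26, 27, 45 and 6 in KO LPS. Granzyme A RNA was thus present in all 19 libraries, and its LPS and PBS ranges overlapped in CPM in both genotypes. The log2FC of Gzma for LPS against PBS was 2.19 (SE 0.67) in WT and 1.60 (SE 0.64) in KO. For KO against WT it was -1.21 (SE 0.59) after LPS, and -0.75 without WT LPS replicate 4. At PBS, the KO mean of 0.425 ± 0.339 CPM (SD, n = 5) and the WT mean of 0.667 ± 0.259 CPM (SD, n = 4) differed by less than the larger SD.

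Nkg7 and Ncr1 were close to the detection limit. Raw Nkg7 counts were 6, 8, 3 and 1 in WT PBS, 4, 9, 19, 19 and 1 in WT LPS, 4, 1, 3, 4 and 2 in KO PBS, and 1, 6, 5, 11 and 0 in KO LPS. The Nkg7 ranges overlapped in every comparison, and its log2FC for LPS against PBS was 1.30 (SE 0.75) in WT and 0.82 (SE 0.79) in KO, and 0.22 in KO without KO LPS replicate 4. Raw Ncr1 counts were 3, 2, 6 and 1 in WT PBS, 11, 5, 19, 13 and 4 in WT LPS, 6, 3, 1, 3 and 6 in KO PBS, and 1, 0, 5, 11 and 1 in KO LPS. The log2FC of Ncr1 for LPS against PBS was 1.85 (SE 0.75) in WT and 0.06 (SE 0.73) in KO, and the LPS and PBS ranges overlapped in both genotypes. The difference between these effects, the interaction, was -1.79 (SE 1.07). The KO value rested on KO LPS replicate 4 and was -0.91 without it. For KO against WT after LPS, the log2FC was -1.29 (SE 0.70) for Nkg7 and -1.63 (SE 0.68) for Ncr1, and at PBS it was -0.81 (SE 0.83) and 0.16 (SE 0.81). The Ncr1 value at PBS had no stable direction and ran from -0.12 without KO PBS replicate 1 to 0.79 without WT PBS replicate 3.

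**Figure D1:**
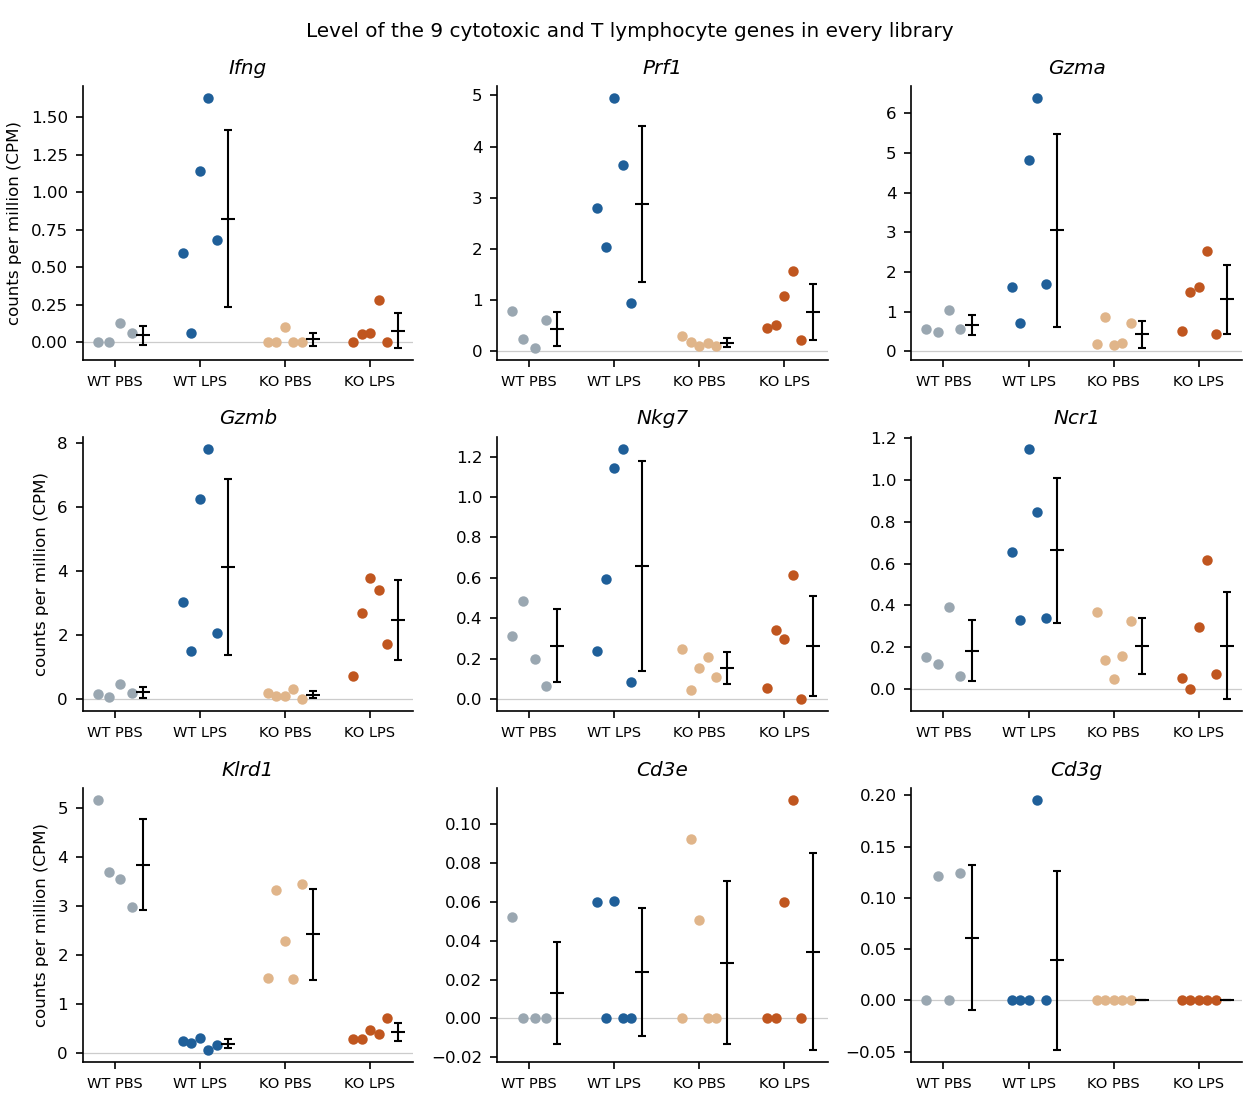
CPM of each of the 9 genes (one panel per gene, each with its own linear axis) in every library of the 4 groups. Points are libraries in replicate order, and the black dash and bar give the group mean ± SD. Ifng, Prf1 and the granzymes are highest in the WT LPS libraries, Klrd1 is highest in the PBS libraries, and Cd3e and Cd3g stay below the level of 3 counts or close to it.

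Klrd1 went in the other direction. Raw Klrd1 counts were 99, 61, 54 and 48 in WT PBS and 25, 72, 45, 29 and 64 in KO PBS. After LPS they were 4, 3, 5, 1 and 2 in WT and 5, 5, 8, 7 and 10 in KO. All PBS libraries lay above all LPS libraries of the same genotype. Its mean was 3.85 ± 0.929 CPM in WT PBS (SD, n = 4) and 2.43 ± 0.937 CPM in KO PBS (SD, n = 5), against 0.195 ± 0.0875 CPM in WT LPS (SD, n = 5) and 0.432 ± 0.182 CPM in KO LPS (SD, n = 5). The log2FC for LPS against PBS was -4.24 (SE 0.40) in WT, an 18.9-fold lower level, and -2.49 (SE 0.35) in KO, a 5.63-fold lower level. For KO against WT it was 1.08 (SE 0.42) after LPS and -0.66 (SE 0.32) at PBS, and the LPS effect differed between the genotypes by 1.75 (SE 0.53) on the log2 scale. The WT LPS counts of Klrd1 lay between 1 and 5, so that the size of this difference depended on a few reads.

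Markers of several cell types fell after LPS, as did the Klrd1 level. All 7 microglia markers (Cx3cr1, Gpr34, Olfml3, P2ry12, Sall1, Siglech and Tmem119) fell after LPS in both genotypes, with a median log2FC of -2.08 in WT and -1.84 in KO. Their summed level was 11480 to 17760 CPM in WT PBS and 12250 to 17810 CPM in KO PBS, and 3180 to 6048 CPM in WT LPS and 3421 to 6669 CPM in KO LPS. None of the 7 passed the test between genotypes. Of the 6 markers of conventional dendritic cells, 4 were tested, and 3 fell in WT (median of -1.22) and 2 in KO (median of -0.92). Over all genes tested, 17.4% fell in WT and 19% in KO. The source of the Klrd1 reads was not tested.

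**Figure D2:**
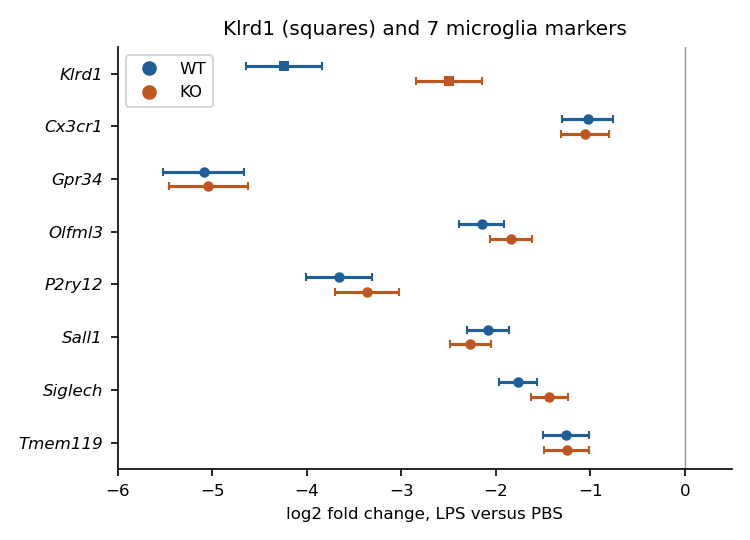
Log2FC for LPS against PBS (horizontal axis) of Klrd1 (squares) and of the 7 microglia markers (circles) in WT and KO mice, with bars of 1 SE. All values lie below 0. Klrd1, at -4.24 in WT and -2.49 in KO, lies within the range of the markers in both genotypes.

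The T cell receptor genes were at the limit of detection in every group. Cd3e had 9 counts in all, in 7 of the 19 libraries, and no library held more than 2. Its counts were 1, 0, 0 and 0 in WT PBS, 1, 0, 1, 0 and 0 in WT LPS, 0, 2, 1, 0 and 0 in KO PBS, and 0, 0, 1, 2 and 0 in KO LPS. Cd3g had 7 counts in 3 libraries, all of them WT. These were 2 libraries of WT PBS with 2 counts each and 1 library of WT LPS with 3 counts, and the 10 KO libraries had 0, which at 3 counts per library allows a level of up to 0.139 to 0.217 CPM in these libraries. No fold change is given for either gene, since no library exceeded 3 counts, and a difference between groups was not detectable at this depth.

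Levels of different genes were compared per kilobase of exon. In PBS mice Klrd1 ranked first, at 2.88 ± 0.696 CPM per kb in WT (SD, n = 4) and 1.82 ± 0.702 CPM per kb in KO (SD, n = 5), and exceeded the next gene, Gzma, by more than both SDs. After LPS, Gzmb ranked first, at 2.88 ± 1.92 CPM per kb in WT and 1.72 ± 0.866 CPM per kb in KO (SD, n = 5 each). In WT LPS mice the order was Gzmb, Gzma, Prf1, Nkg7, Ifng, Ncr1, Klrd1, Cd3g and Cd3e, and only the steps from Ncr1 to Klrd1 and from Klrd1 to Cd3g exceeded both SDs. In KO LPS mice the order was Gzmb, Gzma, Klrd1, Prf1, Nkg7, Ncr1, Ifng, Cd3e and Cd3g, and the step from Gzmb to Gzma alone exceeded both SDs. Ifng thus stood at rank 5 in WT and at rank 7 in KO, among neighbours that did not differ beyond their spread.

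Across the comparisons, the counts of members whose groups did not overlap were small. In WT, Prf1 and Gzmb were higher and Klrd1 lower after LPS without overlap, which is 2 and 1 of 9 members, while over all 18739 genes that passed the low-count filter 20.8% were higher and 17% lower in this way. In KO, Gzmb was higher and Klrd1 lower without overlap, against 16.2% and 16.6% of all genes. Between KO and WT, all 9 members overlapped after LPS, where 0.0587% of genes were higher and 0.16% lower without overlap, and all 9 overlapped at PBS, where the shares were 0.427% and 0.544%. Of the members, 6 passed the filter, and Ifng, Cd3e and Cd3g did not. The members were chosen with these comparisons in view, and the comparisons that share a group of mice are not independent of each other.

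**Figure D3:**
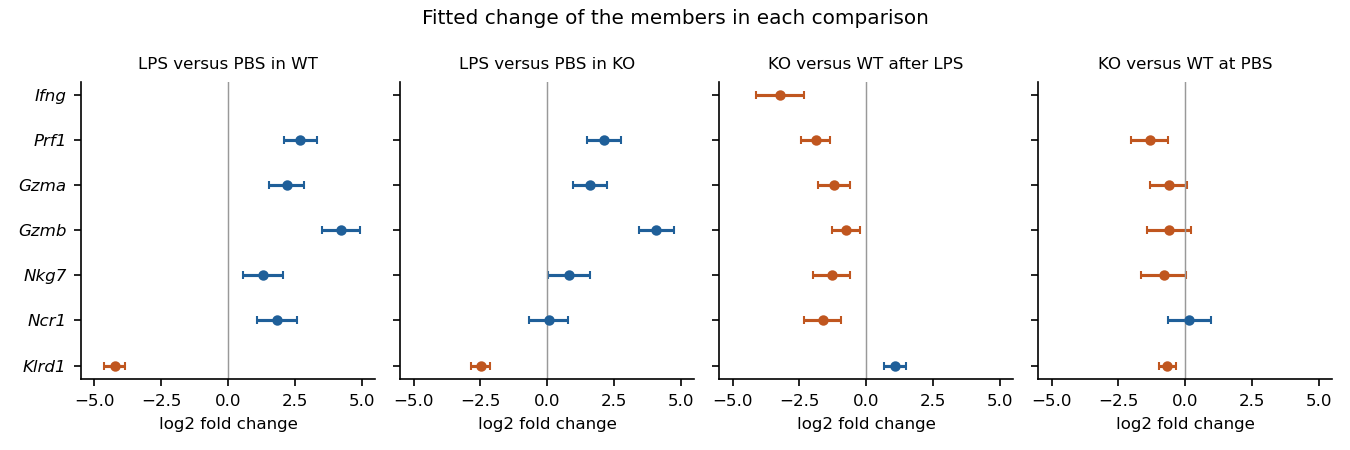
Log2FC (horizontal axis) of the members in each of the 4 comparisons, with bars of 1 SE. Ifng is shown only for KO against WT after LPS and Cd3e and Cd3g are not shown, because their counts were too low for a fold change. After LPS the KO values are below 0 for Ifng, Prf1, Gzma, Gzmb, Nkg7 and Ncr1 and above 0 for Klrd1.

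The levels varied widely between mice of one group, and the same libraries were high for most genes. In the WT LPS group, replicates 3 and 4 were the 2 highest libraries for 6 of the 6 genes Ifng, Prf1, Gzma, Gzmb, Nkg7 and Ncr1, which were put together after their values were seen. In the KO LPS group, replicate 4 was among the 2 highest for 6 and replicate 3 for 5 of these 6 genes. Summed over the 6 genes, the WT LPS libraries held 8.95, 5.26, 19.5, 21.5 and 5.80 CPM in replicates 1 to 5, and the KO LPS libraries held 1.80, 5.09, 7.12, 9.01 and 2.45 CPM. The ranges overlapped between the genotypes, and 3 KO libraries were below every WT library. The PBS libraries held 1.39 to 2.30 CPM in WT and 0.660 to 1.34 CPM in KO.

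The myeloid markers also varied between these libraries. The mean log2 CPM of 8 neutrophil markers (Camp, Csf3r, Ly6g, Mmp8, Ngp, Retnlg, S100a8 and S100a9) was 5.07 and 5.13 in WT LPS replicates 3 and 4 and 5.17 and 4.82 in KO LPS replicates 3 and 4. The other 6 LPS libraries were between 3.14 and 4.49. The order was not the same throughout, since WT LPS replicate 1 ranked 4 of the 10 LPS libraries for the sum of the 6 genes and 8 for the neutrophil markers, and KO LPS replicate 5 ranked 9 and 5. The summed level of these markers was 456 to 702 CPM in WT LPS and 276 to 689 CPM in KO LPS. Csf3r, which fell after LPS, was the largest part of each sum. It had 3372 to 5861 counts in the LPS libraries, against at most 2404 for any other marker. Between genotypes after LPS, 0 of 8 passed the test, with a median log2FC of -0.03, where 0.544% of all genes were higher and 0.763% lower. The 6 monocyte markers summed to 313 to 455 CPM in WT LPS and 198 to 471 CPM in KO LPS, and 0 of 6 passed it between genotypes, with a median of -0.39. KO LPS replicates 1, 2 and 5, at 198, 245 and 229 CPM, were below every WT LPS library for the monocyte markers, and KO LPS replicates 3 and 4, the highest KO libraries for the cytotoxic genes, were also the highest for these markers. All 14 of these markers were above 3 counts in some library. With the 4 LPS libraries highest in neutrophil markers left out, the log2FC for KO against WT after LPS was -4.03 for Ifng, -2.26 for Prf1, -0.71 for Gzma, -0.36 for Gzmb, -1.13 for Nkg7, -3.23 for Ncr1 and 1.01 for Klrd1. In the same setting the log2FC for LPS against PBS was 1.01 for Gzma, 3.34 for Gzmb and 0.22 for Nkg7 in WT, and 1.20 for Prf1, -0.12 for Nkg7 and -2.14 for Ncr1 in KO. This setting was chosen after the data were seen and kept replicates 1, 2 and 5 of each LPS group. The libraries left out were also the highest of their groups for the sum of the 6 genes. Lower LPS values of these genes thus followed in part from the choice. The part of neutrophils and monocytes in the levels of the cytotoxic genes was not tested.

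**Figure D4:**
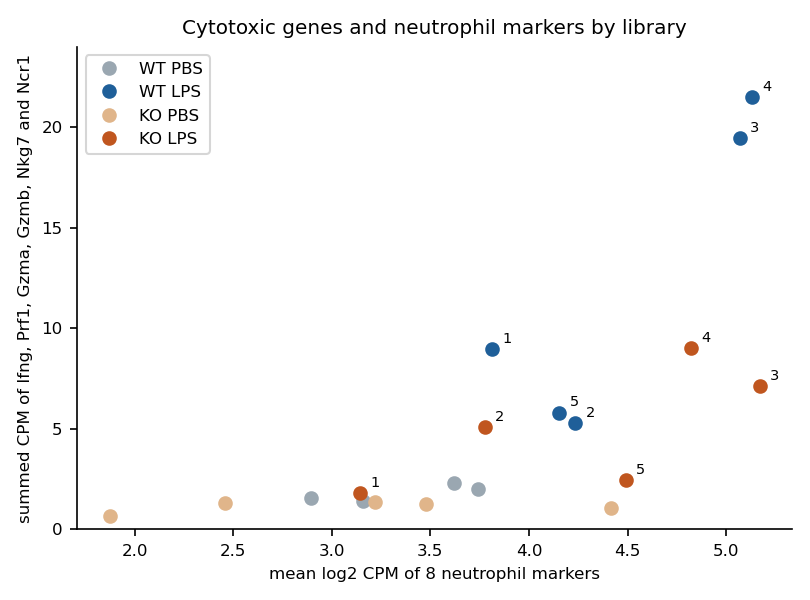
Summed CPM of Ifng, Prf1, Gzma, Gzmb, Nkg7 and Ncr1 (vertical axis) against the mean log2 CPM of the 8 neutrophil markers (horizontal axis) in the 19 libraries. LPS libraries carry their replicate number. Replicates 3 and 4 of both genotypes lie farthest to the right, and WT replicates 3 and 4, at 19.5 and 21.5 CPM, lie above the others.

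Other genes of the same machinery were followed in 3 lists without the members, with 14 cytotoxic effector genes, 25 NK cell genes and 32 T cell genes. Of these 71 genes, 34 passed the low-count filter and were tested with edgeR's quasi-likelihood test. Genes at most at 3 counts in every library were Klra7 and Cd160 among the NK genes, and Cd3d, Trbc1, Trdc, Cd8a, Cd8b1, Cd27 and Skap1 among the T cell genes. Cd3d, Trbc1, Trdc and both CD8 genes were thus as low as Cd3e and Cd3g. Trac and Trbc2, the alpha and the other beta constant chain, and Cd247, the zeta chain of the CD3 complex, all named after their values were seen, reached 12, 6 and 9 counts in a library and did not pass the filter. The NK1.1 gene Klrb1c, chosen after its values were seen, had 10, 6, 5, 5 and 1 counts in WT LPS and 0, 3, 9, 7 and 4 in KO LPS, and did not pass the filter.

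After LPS, 13 of the 34 genes rose and 7 fell in WT, and 12 rose and 7 fell in KO (adjusted p under 0.05 and |log2FC| of at least 0.5). Over all genes tested, 18.4% rose and 17.4% fell in WT, and 20.1% rose and 19% fell in KO. The median log2FC of the 34 genes was 0.40 in WT and 0.33 in KO, against -0.06 and -0.01 for all genes. Of the 11 effector genes tested, 5 rose and 1 fell in each genotype. Srgn, the proteoglycan core of secretory granules, rose with a log2FC of 3.68 (SE 0.21) in WT and 3.88 (SE 0.19) in KO. Stx11, a syntaxin of granule release, rose by 3.79 (SE 0.45) and 3.62 (SE 0.40) on the log2 scale. Ctsc, the protease that activates granzymes, Lyst, a regulator of lysosomal traffic, and Tnfsf10, the death ligand TRAIL, rose by 1.02 to 1.32 on the log2 scale. Unc13d, which primes granules for release, fell by 0.67 (SE 0.18) in WT and by 0.74 (SE 0.17) in KO. These genes also serve secretion in myeloid cells, and the cells that carried their RNA were not resolved.

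Of the 10 NK cell genes tested, 6 rose in WT, and 5 rose and 1 fell in KO. The chemokine gene Ccl5 rose with a log2FC of 7.90 (SE 0.50) in WT and 7.86 (SE 0.45) in KO, Cd244a, the receptor 2B4, with 4.98 (SE 0.27) and 5.29 (SE 0.24), and Il18rap, an IL-18 receptor chain, with 3.59 (SE 0.52) and 3.79 (SE 0.48). The counts after LPS were 696 to 2056 for Cd244a and 1869 to 5933 for Ccl5, far above those of any member. The cells that carried the RNA of these list genes were not resolved. The receptor genes Klrb1b and Klrk1 (NKG2D) also rose in both genotypes, with log2FC values of 1.16 and 1.85 in WT and 1.46 and 1.72 in KO. Sh2d1b1, an adaptor of NK receptors, fell by 1.61 (SE 0.38) in KO, and its log2FC in WT was -0.28 (SE 0.39).

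Of the 13 T cell genes tested, 2 rose in each genotype, while 6 fell in WT and 5 in KO. Ccr7, a receptor for lymph node homing that dendritic cells also use, rose with a log2FC of 7.09 (SE 0.92) in WT and 7.07 (SE 0.83) in KO, and Lck, a kinase of T cell receptor signalling, with 1.19 (SE 0.45) and 1.63 (SE 0.43). The costimulatory receptor genes Cd28 and Icos, the co-receptor gene Cd4, the cytokine receptor gene Il7r and the transcription factor gene Tcf7 fell in both genotypes, with log2FC values from -5.15 to -2.27. Cd4 was counted 116 to 198 times in each PBS library and 7 to 39 times in each LPS library, well above Cd3e in the same libraries.

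**Figure D5:**
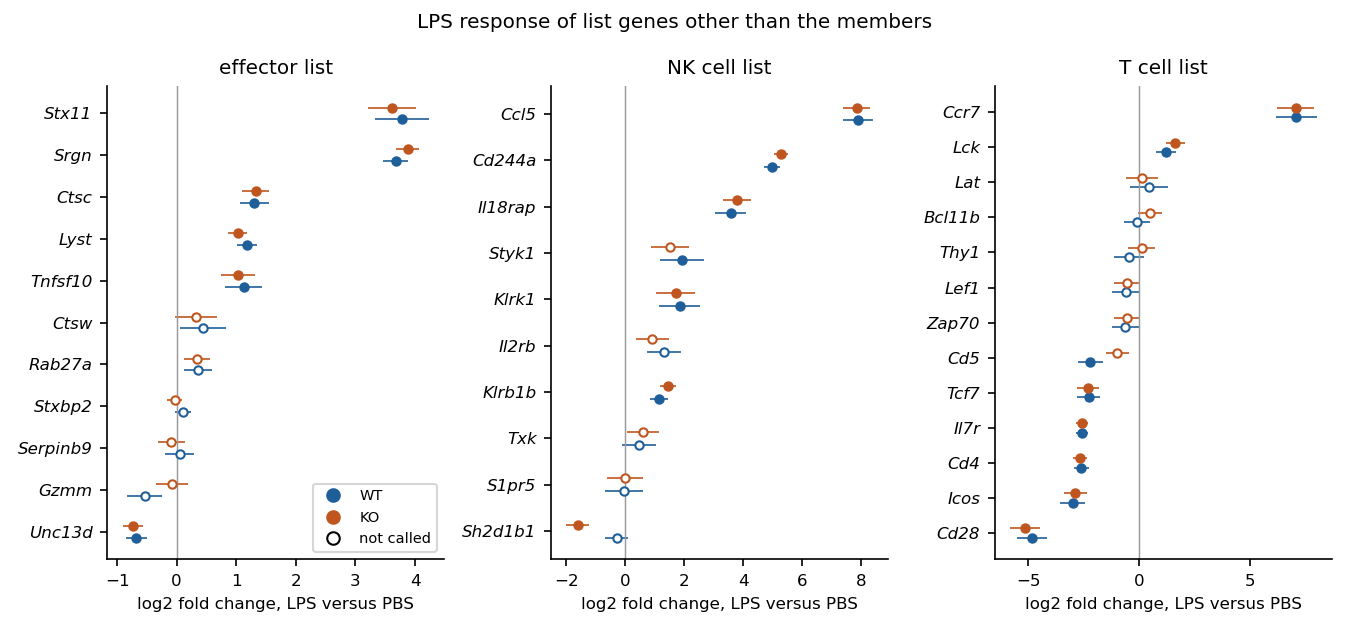
Log2FC for LPS against PBS (horizontal axis) of the tested genes of the effector, NK cell and T cell lists in WT and KO mice, with bars of 1 SE. Filled circles passed the test and open circles did not. Ccl5, Cd244a, Il18rap, Srgn, Stx11 and Ccr7 lie far to the right, and Cd28 and Icos far to the left, in both genotypes.

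Between genotypes, the tested genes of these lists moved little. They included 10 of the 25 NK cell genes and 13 of the 32 T cell genes, and the others did not pass the low-count filter. Without that filter more genes were called, as given below. After LPS, 0 of the 34 genes were higher and 1 was lower in KO at an unadjusted p under 0.05 and |log2FC| of at least 0.5 (0 and 2 by DESeq2), where 0.544% of all genes were higher and 0.763% lower. The gene was Sh2d1b1, with a log2FC of -0.83 (SE 0.39, unadjusted p = 0.048 and adjusted p = 1 by edgeR's quasi-likelihood test). Its counts after LPS were 37, 12, 13, 7 and 10 in WT and 6, 16, 6, 11 and 9 in KO, and the groups overlapped. The call was lost without WT LPS replicate 1 or KO LPS replicate 1, 4 or 5, where 0 genes were lower, and 2 genes were lower without WT LPS replicate 2 or 5 or KO LPS replicate 3. Il2rb, the shared chain of the IL-2 and IL-15 receptors of NK cells, had a log2FC of -1.05 (SE 0.52) and was named after its values were seen. At PBS, 0 of the 34 genes differed at that threshold in either direction by edgeR, and 0 by DESeq2, where 0.224% of all genes were higher and 0.576% lower. No gene of the lists, and 0% of all genes, had an interaction of genotype and LPS at an adjusted p under 0.05 in edgeR, and DESeq2 gave 0 for the lists. At an unadjusted p under 0.05, 1 of the 34 genes, Sh2d1b1 with an interaction of -1.33 (SE 0.55), and 0.961% of all genes passed.

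Genes upstream and downstream of interferon-gamma were followed in a list of 19 genes, 18 of them tested. After LPS, 12 rose and 1 fell in WT, and 11 rose and 1 fell in KO. Over all genes tested, 18.4% rose and 17.4% fell in WT, and 20.1% rose and 19% fell in KO. The targets Gbp2 and Cxcl10 rose with log2FC values of 4.88 (SE 0.36) and 6.84 (SE 0.67) in WT and of 4.64 (SE 0.32) and 6.73 (SE 0.60) in KO, and the transcription factor gene Irf1 with 1.81 (SE 0.24) and 1.45 (SE 0.22). Of the upstream genes, Il12b rose with log2FC values of 9.31 (SE 1.25) in WT and 8.29 (SE 1.05) in KO. The receptor gene Il12rb2 rose with 1.65 (SE 0.32) and 1.40 (SE 0.29). Il15, a growth factor for NK cells, was the gene that fell, by 1.06 (SE 0.21) in WT and by 0.91 (SE 0.20) in KO. The targets named here also respond to type I interferons. Between genotypes after LPS, 1 of the 18 genes was lower in KO, which was Ciita, the class II transactivator, with a log2FC of -0.83 (SE 0.24, unadjusted p = 0.0022 and adjusted p = 1 by edgeR). At PBS, Cxcl9, a chemokine that attracts T and NK cells, was lower in KO with a log2FC of -2.28 (SE 0.73, unadjusted p = 0.0057 and adjusted p = 1 by edgeR). Its counts were 4, 99, 14 and 5 in WT PBS and 4, 7, 13, 10 and 2 in KO PBS, so that WT PBS replicate 2 stood far above the others. Of all genes tested, 0.763% were lower in KO after LPS and 0.576% at PBS. The paper had already named Ciita and Cxcl9 as lower in KO in these comparisons. The list was chosen with earlier results of these data known, so that the p-values of both genes are descriptions only.

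The genes whose pattern was most like that of the members were sought over the 10 LPS libraries. The mean log2 CPM of the 9 members was correlated with each of 18733 other genes, and the 10 highest Pearson coefficients lay between 0.856 and 0.888, for Batf2, Cfp, Capn1, Gvin3, Arfip1, Mcub, Gm57206, Samhd1, Ogfod3 and Gm5970. Batf2, a transcription factor gene that responds to interferon-gamma, stood first, followed by Cfp, the gene of properdin, at 0.886. Over the 9 PBS libraries the coefficients of these 10 genes were between -0.416 and 0.478. These are the highest of 18733 values over libraries that share the genotypes and their other differences, and are given as a description.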

How the data were processed

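RNA was sequenced from CD11b+ brain cells of 19 mice. From stranded, ribosomal RNA-depleted libraries, the authors trimmed paired reads with Cutadapt, aligned them with STAR 2.7.9a to GRCm39 with an Ensembl annotation, and deposited raw counts per gene, which are not normalized. Gene symbols came from GENCODE M39, which named 56236 of 56980 genes.

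Analysis of the counts used edgeR 4.0.16 in R 4.3.3. The low-count filter (filterByExpr, minimum count 10, minimum total count 15) left 18739 genes, and all 19 libraries entered 1 quasi-likelihood fit with 4 groups and TMM normalization. Adjusted p-values are those of Benjamini and Hochberg over all genes tested. LPS against PBS was called at an adjusted p under 0.05 and |log2FC| of at least 0.5, and KO against WT at an unadjusted p under 0.05 and the same fold change, as the study did. The SE is the size of the log2FC divided by the square root of its F statistic. Log2 CPM used a prior count of 2. Ifng was taken from the same fit without the filter. Where a group held 1 to 3 counts in all, the ratio of counts with an exact 95% conditional binomial interval was given instead. No fold is given where no library of either group exceeded 3 counts.

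The members and the gene lists were chosen with earlier results of these data known, and some list genes and motifs are not reported here. The text names all members, per list up to 5 genes per direction with the smallest p in LPS against PBS, every list gene called between genotypes, and the 10 genes most like the members. Each mouse was a separate animal, and no 2 libraries of a group were alike within sampling noise (chi-square of at least 6.5 per degree of freedom). The scripts were tested on simulated counts. Alternatives were no filter, at least 10 counts in every library, DESeq2 size factors, DESeq2 1.42.0, the 2 groups compared alone, the replicate number as a block, and each library left out.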

Additional observations from a re-analysis of the deposited data

Results flagged for a closer look

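In 2 of 26 sets of a member and a group, a library stood apart from the others of its group by Dixon's criterion, and chance gives about 1 in 20. The Ifng level of 0.280 CPM in KO LPS replicate 4 was the highest of its group, from 5 counts. The Gzma level of 1.05 CPM in WT PBS replicate 3 was the highest of its group, from 16 counts.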

How the results depend on the processing

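Counts of effector, NK and T list genes (34 tested) called after LPS kept within 1.5 times of 13 higher and 7 lower in WT and 12 and 7 in KO in every setting but 1. With at least 10 counts in every library, 8 were higher and 2 lower in WT and 2 were lower in KO, since fewer genes were tested. Between genotypes after LPS, the single lower gene became 0 with that filter, with DESeq2 size factors and with the 2 groups alone, and 2 with DESeq2. Without the low-count filter, 2 were higher and 5 lower after LPS, and 1 higher and 3 lower at PBS. Without the 4 LPS libraries highest in neutrophil markers, 1 was higher and 2 were lower after LPS. Leaving out 1 library gave 0 to 1 higher and 0 to 2 lower genes after LPS. The cause of these shifts was not tested, except for the filter. With the replicate block, which pairs mice by number only, 12 were higher and 7 lower in WT, 12 and 8 in KO, and 0 and 1 between genotypes after LPS. Same-numbered mice were different animals, and the correlation of their deviations was between -0.573 and 0.576, with a value under 0.1 in each comparison, so that the numbers were not taken as pairs.

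Leaving aside the neutrophil setting, 496 values of a member's log2FC moved by less than the SD within groups and 4 by more, each of the 4 without KO LPS replicate 4. These were Ncr1 after LPS in KO (-0.91), between genotypes after LPS (-2.58) and in the interaction (-2.72), and Ifng between genotypes (-4.48). Counts under about 20 per library limit Ifng, Nkg7, Ncr1, Cd3e and Cd3g. They also limit Prf1, Gzma and Gzmb in PBS mice, at 0 to 19 counts, and Klrd1 after LPS, at 1 to 10 counts.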

Other observations

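Of the 8 markers of B and plasma cells, 3 passed the low-count filter. Ighm, the heavy chain of IgM, fell after LPS with a log2FC of -3.16 (SE 0.24) in WT and -3.32 (SE 0.24) in KO, and Cd79b, a chain of the B cell receptor, with -2.18 (SE 0.36) and -2.66 (SE 0.36). The light chain gene Igkc was lower in KO than in WT after LPS, with a log2FC of -2.19 (SE 0.75, unadjusted p = 0.0091 and adjusted p = 1 by edgeR), at 18, 22, 7, 9 and 4 counts in WT and 8, 2, 3, 1 and 0 counts in KO.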
